A study of Homo sapiens with 6 samples.

Results

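The genes described here encode the proteins of the cytosolic ribosome. They were taken by name from the deposited gene table: protein-coding genes on primary chromosomes whose symbols begin with RPL, RPS, RPLP or RPSA in the standard pattern, without the ribosomal protein S6 kinases. The rule found 84 of 18164 genes in the table, 51 of the large (60S) subunit, 32 of the small (40S) subunit and RPS19BP1, which encodes a binding partner of the RPS19 protein and is not part of the ribosome. RPL6 and RPL39L were not analysed here. The other 83 symbols are those of cytosolic ribosomal proteins and their paralogs, and all 84 passed the filter on low counts.

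RNA was sequenced from LNCaP, a human prostate cancer line that depends on the androgen receptor, with genotype WT in the labels. The 3 treated samples received 5 µM enzalutamide, an antagonist of the androgen receptor, for 14 days, and the 3 control samples received the solvent dimethyl sulfoxide (DMSO). All 6 samples were seeded at 150000 cells per dish, held 0.1% DMSO and had their medium renewed every 72 h in 10% serum. The controls were taken at 70 to 80% confluency on a day that the sources used here do not give, so drug, time in culture and cell density cannot be told apart. LNCaP is a single line, and nothing in the labels states that libraries of a group were grown as separate cultures. The p-values therefore reflect the scatter of these libraries, and that scatter could be technical.

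A ribosome is built from ribosomal RNA and one copy of most ribosomal proteins, so cells make these proteins in near-equal numbers and degrade the surplus. Their mRNAs are short and abundant. Most carry a 5′ terminal oligopyrimidine (TOP) tract, a run of C and T letters at the very start of the transcript through which the kinase mTORC1 and the RNA-binding protein LARP1 control their translation and stability. Several ribosomal proteins also act outside the ribosome, among them RPL5, RPL11 and RPL23, which bind the p53 inhibitor MDM2 when ribosome assembly is disturbed.

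Libraries held 35578160 to 42540487 counts in DMSO and 42302153 to 52107644 with enzalutamide. The 9 luminal prostate markers summed to 7686 to 7793 CPM (read counts scaled to a common library size) in DMSO and 6593 to 6969 CPM with enzalutamide. Of 7 fibroblast markers 5 were measured and summed to 13.1 to 13.5 and 14.1 to 14.7 CPM, and of 4 basal markers KRT14 alone was measured, at 1.92 to 2.35 and 0.699 to 1.28 CPM. The 8 leukocyte and erythroid markers were not in the table. Enzalutamide replicate 1 stood apart from the others: GC-rich genes exceeded GC-poor genes by 0.63 on the log2 scale relative to the average library, against −0.23 to 0.05 in the other 5 libraries. The part of this difference in the results below was not tested beyond the values given without that library and with the GC trend removed.

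Ribosomal protein genes were lower with enzalutamide almost throughout. Of the 84 genes, 74 fell, RPL10L rose and 9 did not pass the test (edgeR quasi-likelihood test, adjusted p under 0.05 over all genes). Of all genes tested 29.2% were called lower and 30.0% higher. The median log2 change of the 84 genes was −0.81, with quartiles of −1.01 and −0.60, beside a median of −0.0037 and quartiles of −0.54 and 0.56 over all genes. The changes lay close together: 62 of the 84 were between −1.2 and −0.5. At least 2-fold falls that passed the test numbered 22 of 84, against 12.3% of all genes. Without overlap between the groups, 76 genes were lower in each enzalutamide library than in every DMSO library, against 33.0% of all genes, and RPL10L and RPS4Y1 were higher, against 33.4%.

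The medians of the subunits lay close together. Of 51 large-subunit genes 47 fell, RPL10L rose and 3 did not pass, and their median log2 change was −0.84. Of 32 small-subunit genes 27 fell and 5 missed the threshold, and their median was −0.78. Large-subunit genes took 63.3 to 63.5% of the summed counts of the 84 genes in the DMSO libraries and 62.8 to 63.5% in the enzalutamide libraries, and these ranges overlap.

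**Figure D1:**
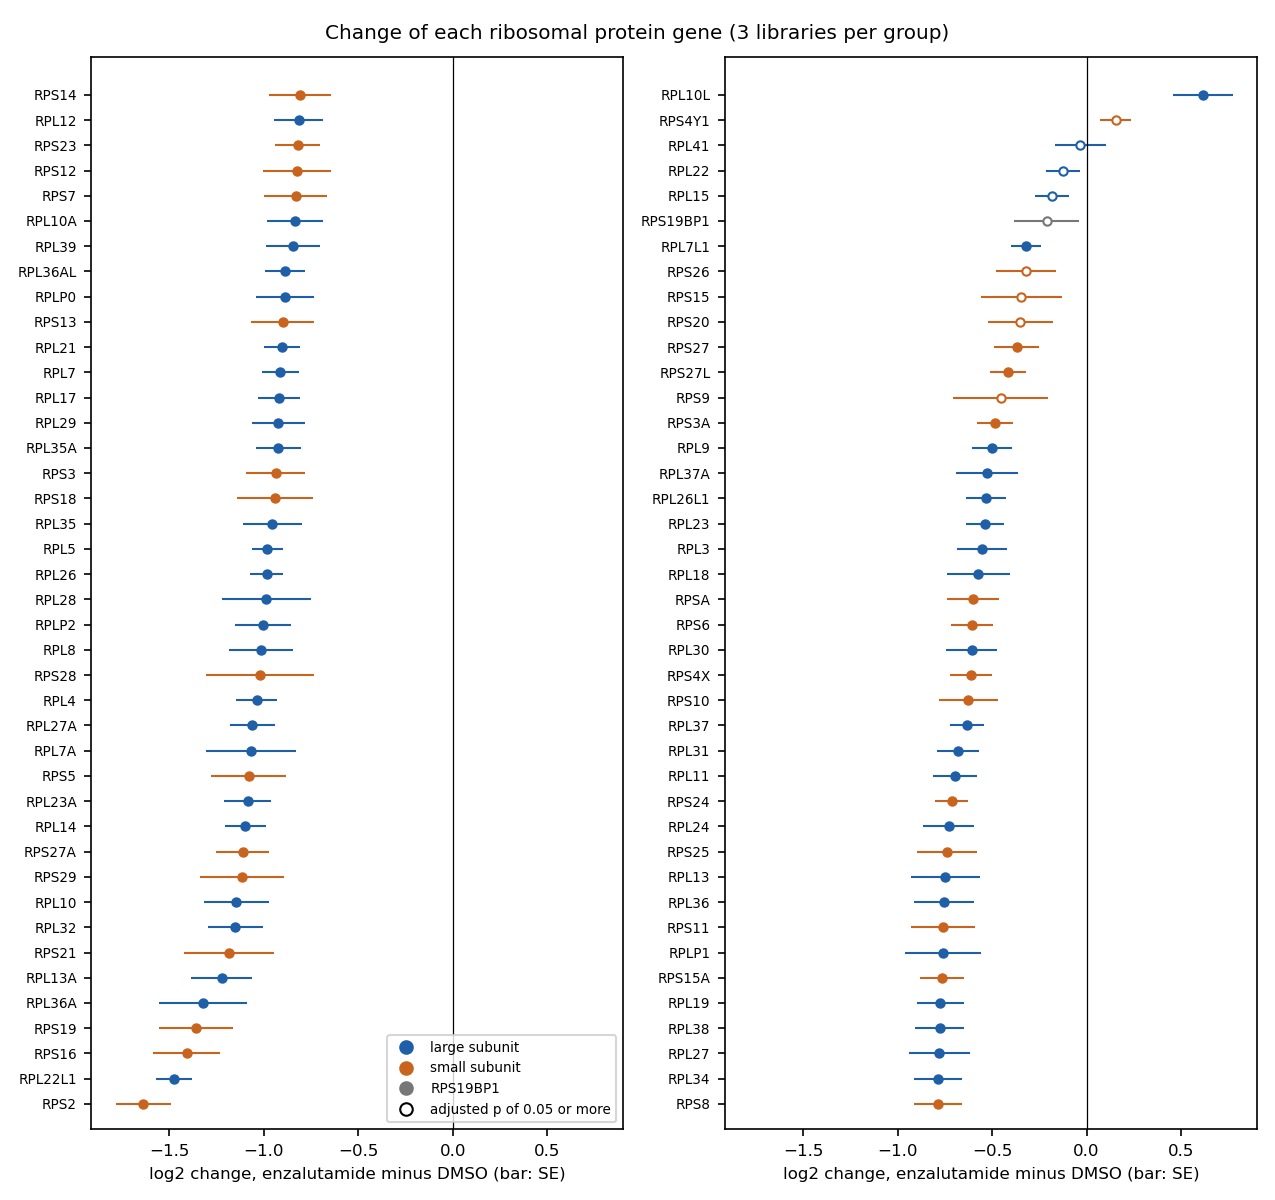
Log2 change with enzalutamide of 82 of the 84 genes (horizontal axis, with SE as bars), sorted by change in a pair of panels and coloured by subunit; open circles did not pass the test, and RPL3L, at −4.80 on few counts, is off the scale. Most points of both subunits lie between −1.2 and −0.5, RPS2 is lowest at −1.64 and RPL10L highest at 0.62.

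The 84 genes together took 4.67, 4.85 and 4.63% of the counts in the DMSO libraries and 3.34, 2.64 and 2.30% with enzalutamide. Every treated library lay below every control, and the treated libraries were spread more widely (2.76 ± 0.529%, SD, n = 3) than the controls (4.72 ± 0.120%, SD, n = 3). The ratio of the means was 0.585, with an exact two-sided permutation p of 0.1, the smallest that 3 against 3 libraries allow. The 95% Wilson intervals were narrow, for example 4.66 to 4.68% in DMSO replicate 1 and 3.33 to 3.34% in enzalutamide replicate 1, and cover counting error alone. In the same libraries genes of the mitochondrial genome took 10.5, 11.2 and 10.8% of counts in DMSO and 12.1, 13.6 and 15.7% with enzalutamide. With those genes left out of the total the ratio of the ribosomal protein shares was 0.604. In bulk RNA, fewer cells that express these genes and less RNA per cell cannot be told apart, and CPM do not measure RNA per cell.

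**Figure D2:**
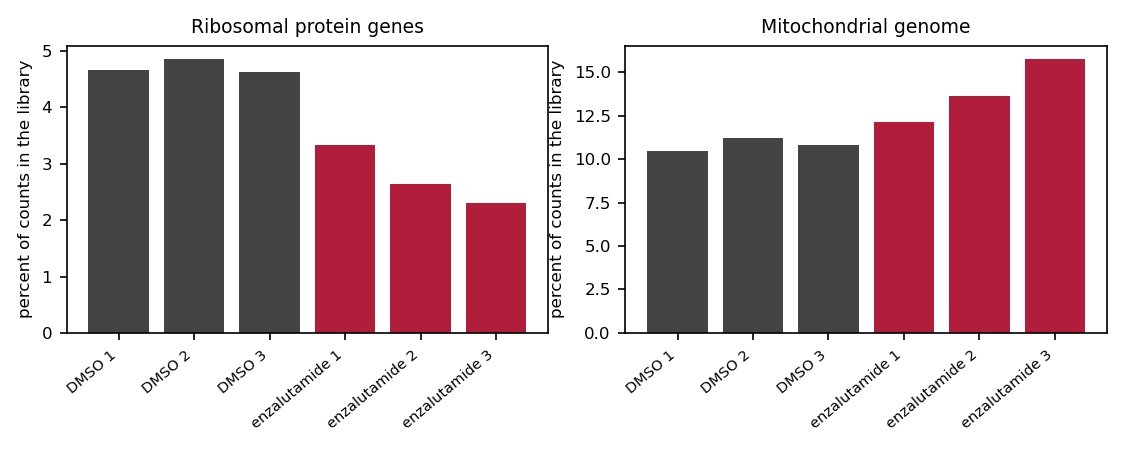
Percent of each library's counts in the 84 ribosomal protein genes (left) and in genes of the mitochondrial genome (right), with 1 bar per library. The ribosomal protein share lies between 4.63 and 4.85% in DMSO and between 2.30 and 3.34% with enzalutamide, while the mitochondrial share is higher in each treated library.

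The treated libraries differed in level. Among the 78 genes whose mean reached 10 CPM in the higher group, the median departure from the DMSO mean was −0.52 in enzalutamide replicate 1, −0.87 in replicate 2 and −1.05 in replicate 3 (log2). In the DMSO libraries these medians were −0.01, 0.04 and −0.03. Of all 84 genes, 70 were highest in replicate 1 among the treated libraries, the library with the GC difference, and 71 were lowest in replicate 3, the library with the highest mitochondrial share. Without enzalutamide replicate 1, 81 genes fell, RPL10L and RPS4Y1 rose, and the median was −0.97.

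**Figure D3:**
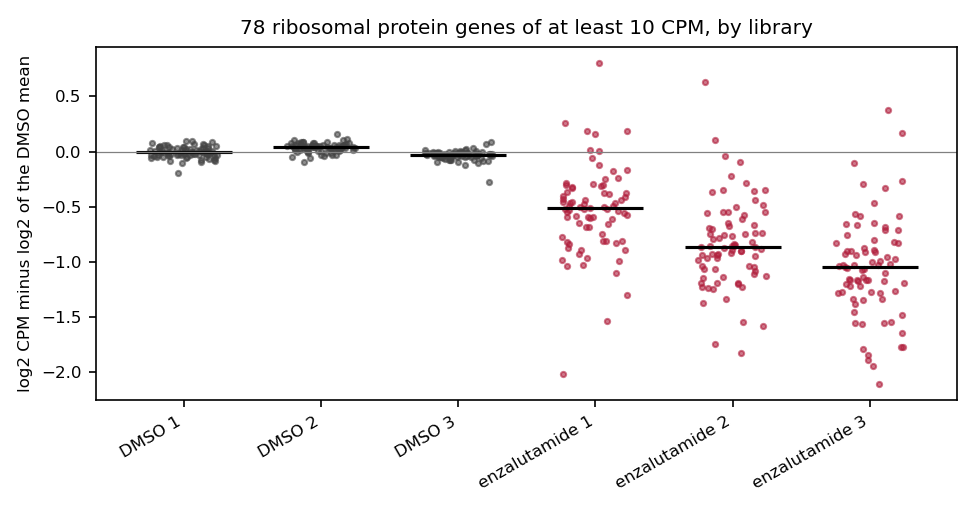
Departure of each of 78 ribosomal protein genes from its DMSO mean (vertical axis, log2 CPM) in each of the 6 libraries, with horizontal lines at the medians. The DMSO libraries lie around 0, and the enzalutamide medians are −0.52, −0.87 and −1.05.

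The largest fall among well-measured genes was in RPS2 (chromosome 16, 1962058 to 1964841, hg38), which lies near the mRNA entry channel of the small subunit. RPS2 had 2122, 2318 and 2014 CPM in DMSO and 871, 605 and 598 CPM with enzalutamide. It was lower in every treated library, 3.11-fold on average (log2 change −1.64 ± 0.15, SE, adjusted p = 7.12e-06). Named RPS2 pseudogenes held 15.2% of the counts of gene and pseudogenes together, and 25.6% of its exonic bases overlapped other annotated genes.

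RPL22L1, a paralog of the large-subunit gene RPL22 (chromosome 3, 170864875 to 170870208), had 312, 296 and 299 CPM in DMSO and 104, 119 and 102 CPM with enzalutamide. Its libraries agreed closely, with a log2 change of −1.48 ± 0.10 (SE, adjusted p = 5.49e-07). RPS16, a small-subunit protein at the decoding side (chromosome 19, 39433137 to 39435949), had 435, 475 and 428 CPM in DMSO and 224, 149 and 131 CPM with enzalutamide. RPS19, which is needed to mature the 18S ribosomal RNA and is the gene most often mutated in Diamond-Blackfan anaemia (chromosome 19, 41859918 to 41872926), had 176, 186 and 174 CPM in DMSO and 96.2, 61.3 and 51.7 CPM with enzalutamide. RPS16 fell 2.65-fold and RPS19 2.56-fold, each without overlap between groups. RPL13A, which also takes part in a translational silencing complex in myeloid cells (chromosome 19, 49487554 to 49492308), had 2119, 2281 and 2163 CPM in DMSO and 1224, 841 and 748 CPM with enzalutamide, a 2.33-fold fall. RPL36A went from 14.7 ± 1.62 to 5.92 ± 2.07 CPM (SD, n = 3 per group) and RPS21 from 137 ± 6.35 to 60.4 ± 24.2 CPM (SD, n = 3 per group). RPL36A shares exonic bases with the readthrough gene RPL36A-HNRNPH2, so its level is uncertain. The 12 genes on chromosome 19, which include RPS16, RPS19 and RPL13A, had a median log2 change of −1.005, against −0.80 for the other 72. This chromosome was not among the planned comparisons and holds several of the largest falls, so these medians are a description without a test.

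At the other end of the range, 6 genes outside the low-count group stayed close to their DMSO level or passed by little. RPL41, which encodes the smallest ribosomal protein (chromosome 12, 56116590 to 56117967), had 509, 533 and 517 CPM in DMSO and 623, 488 and 413 CPM with enzalutamide. Its treated libraries lay on both sides of the controls (log2 change −0.03 ± 0.14, SE, adjusted p = 0.85). The sign was positive with upper quartile scaling (0.09) and without enzalutamide replicate 3 (0.10), and RPL41 passed as lower without enzalutamide replicate 1 (−0.19). RPL22 (chromosome 1, 6185020 to 6209389) had 188, 186 and 182 CPM in DMSO and 156, 180.2 and 172 CPM with enzalutamide (log2 change −0.13 ± 0.09, SE, adjusted p = 0.252). Each treated library was below each control by a small amount, and the change was 0.00048 with upper quartile scaling and 0.01 with the GC trend removed. RPL15, a large-subunit protein (chromosome 3, 23916545 to 23924374), had 1100, 1148 and 1109 CPM in DMSO and 1072, 958 and 927 CPM with enzalutamide, without overlap but not past the test (log2 change −0.18 ± 0.09, SE, adjusted p = 0.1). It passed as lower without enzalutamide replicate 1 and with the GC trend removed (−0.23 in both). Called falls nearest to 0 were those of RPL7L1 (−0.32), RPS27 (−0.37) and RPS27L (−0.42). The call of RPL7L1 was lost with upper quartile scaling (−0.19). The call of RPS27 was lost with upper quartile scaling and in 5 of the 6 fits that left out a library, all except that without enzalutamide replicate 1.

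Of the other genes that did not pass, 3 small-subunit genes had treated replicate 1 near or above the controls and replicate 3 far below. RPS15 had 418, 455 and 453 CPM in DMSO and 492, 315 and 236 CPM with enzalutamide. RPS20 had 419, 439.8 and 412 CPM in DMSO and 426, 333 and 238 CPM with enzalutamide. RPS26 had 208, 217 and 199.6 CPM in DMSO and 210.5, 162 and 127 CPM with enzalutamide. The groups overlapped in all 3, and all 3 passed as lower without enzalutamide replicate 1, with log2 changes of −0.67, −0.56 and −0.51. RPS15 and RPS20 also passed with the GC trend removed. RPS19BP1 showed the same order of libraries, at 49.9, 52.0 and 49.5 CPM in DMSO and 57.6, 39.1 and 34.0 CPM with enzalutamide. RPS9, near 1 to 2 CPM in each library, missed the threshold (−0.46 ± 0.25 in log2, SE, adjusted p = 0.141), and passed with the counts of its row on an alternate scaffold added (−0.60), without enzalutamide replicate 1 and with the GC trend removed.

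RPL10L was the gene that rose. It is an intronless copy of RPL10 known from the testis, where it stands in for the X-linked RPL10 during male meiosis in mice (chromosome 14, 46651010 to 46651821). It had 7.25, 7.60 and 5.63 CPM in DMSO and 11.9, 10.6 and 8.89 CPM with enzalutamide, all above the controls (log2 change 0.62 ± 0.16, SE, adjusted p = 0.00717). RPL10 had 720.4, 794 and 741 CPM in DMSO and 446, 318 and 255 CPM with enzalutamide. Other annotated genes, mostly on the other strand, overlap 55.5% of its exonic bases, so its level and its ratio to RPL10L are uncertain. Per length the means were 8.41 RPKM for RPL10L and 156 RPKM for RPL10 in DMSO and 12.9 and 70.4 RPKM with enzalutamide. RPS4Y1, the copy of RPS4X on the Y chromosome (2841602 to 2932000), had 236, 243 and 241 CPM in DMSO and 272, 258 and 270.0 CPM with enzalutamide. The groups did not overlap, but the change of 0.15 ± 0.08 (log2, SE, adjusted p = 0.133) missed the threshold. It passed with upper quartile scaling (0.28), without enzalutamide replicate 1 (0.15) and with the GC trend removed (0.17).

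Several ribosomal proteins have a second gene, and the ratio of the copies within a library does not depend on how libraries are scaled. Of 9 pairs fixed as a list, 8 had both copies in the table, and in 6 the log2 ratios of the groups did not overlap. Of all single genes 33.0% lay lower and 33.4% higher without overlap, and no share over other pairs of genes was computed. The 6 include RPL3L to RPL3, which rests on few counts. Each of the 6 pairs had an exact two-sided permutation p of 0.1, the smallest possible, and 0.133 adjusted over the 8 pairs. RPL22L1 lost ground to RPL22. The RPL22L1 to RPL22 count ratio was 1.66, 1.595 and 1.64 in DMSO and 0.665, 0.661 and 0.593 with enzalutamide, a difference of −1.35 in mean log2 ratio. Treated libraries lay below 1 and controls above it in reads, but per length, as reads per kilobase of merged exons (RPKM), the mean of RPL22L1 was above that of RPL22 in both groups (147 against 39.7 RPKM in DMSO, 52.9 against 36.4 with enzalutamide). The RPS4Y1 to RPS4X ratio was 0.277, 0.283 and 0.289 in DMSO and 0.418, 0.487 and 0.555 with enzalutamide, a difference of 0.78 in log2. RPS4X had 854, 859 and 834 CPM in DMSO and 651, 529.6 and 486 CPM with enzalutamide, a fall, while RPS4Y1 did not pass.

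The RPL10L to RPL10 ratio was 0.0101, 0.0096 and 0.0076 in DMSO and 0.0267, 0.0333 and 0.0349 with enzalutamide, a difference of 1.80 in log2. RPL7L1, whose yeast relative is an assembly factor of the large subunit, stood at 0.209, 0.220 and 0.214 of RPL7 in DMSO and at 0.352, 0.283 and 0.343 with enzalutamide. The ratio of RPL26L1, a close copy of RPL26, to RPL26 was 0.231, 0.224 and 0.225 in DMSO and 0.325, 0.306 and 0.298 with enzalutamide. In these pairs the ratio was higher in each treated library than in every control. RPS27L, a known p53 target, and RPS27 had overlapping ratios, at 0.289, 0.264 and 0.276 in DMSO and 0.211, 0.307 and 0.301 with enzalutamide (difference −0.04 in log2, exact permutation p = 1, n = 3 per group). That difference was 0.14 without enzalutamide replicate 1. The RPL36AL to RPL36A ratios overlapped (11.5, 8.24 and 8.80 in DMSO, 18.5, 12.6 and 9.81 with enzalutamide). RPL3L, the copy of RPL3 of skeletal and heart muscle, was counted 10, 23 and 19 times in the controls and 0, 1 and 1 times in the treated libraries. From the pooled counts of 52 against 2, scaled by the summed library sizes, it was 33.7-fold lower with a 95% exact counting interval of 8.86 to 285, and its fitted change of −4.80 rests on these few counts.

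**Figure D4:**
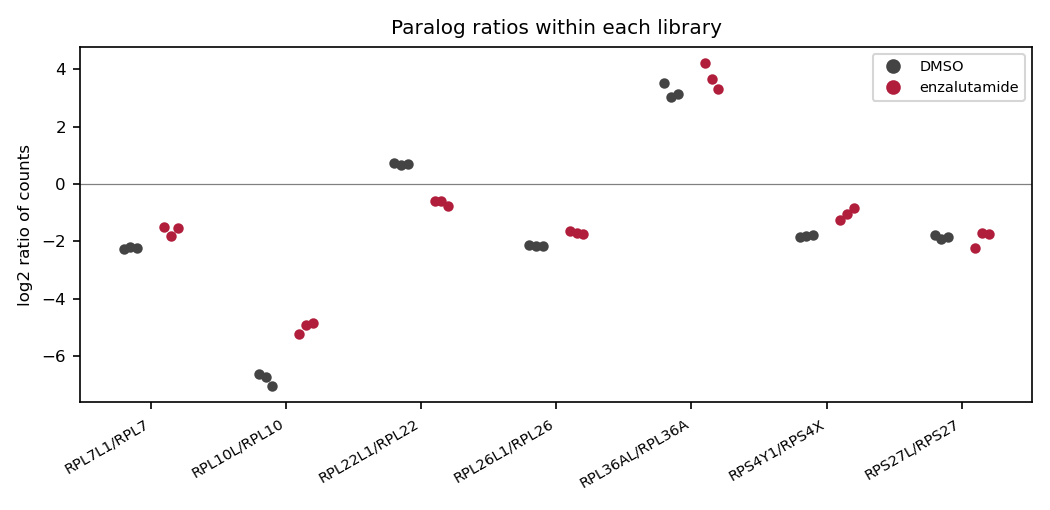
Log2 ratio of counts of the derived copy to the common copy, for 7 paralog pairs in each of 3 DMSO and 3 enzalutamide libraries. The RPL22L1 to RPL22 ratio crosses 0, from 0.71 to −0.65 on average, while the RPS27L to RPS27 ratios of the groups overlap.

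Departures from the common fall were read by testing each gene against the summed counts of the 84 genes in place of the library total. Against that total 11 of the 84 were lower and 13 higher, where 7.31% of all genes were lower and 63.8% higher. The total itself fell, so a gene that kept its level comes out higher, and such a call does not mark a rise. In the simulated counts described under the processing, all 10 unaltered members were called higher against the total. Of the 74 members lowered there by an equal amount, 3 were called lower against it. Among the lower genes were RPL3L, RPS2 (log2 change against the total −0.84 ± 0.11, SE, adjusted p = 0.000327), RPL22L1 (−0.65), RPS16 (−0.63), RPS19 (−0.58), RPL13A (−0.44), RPL10 (−0.36), RPL32 (−0.36), RPL14 (−0.29) and RPL23A (−0.28). Higher were RPL10L (1.42), RPS4Y1 (0.98), RPL41 (0.76), RPL22 (0.71), RPL15 (0.63), RPS19BP1 (0.57), RPL7L1 (0.51), RPS26 (0.47), RPS20 (0.43), RPS27 (0.43), RPS15 (0.42), RPS3A (0.33) and RPL9 (0.31). Over the 78 genes of at least 10 CPM the SD of these departures was 0.380, on the log2 scale. The count of 24 was 45 without enzalutamide replicate 1, and 15 in each fit without 1 of the DMSO replicates. The 15 were all among the 24, and so were 24 of the 45.

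The P-stalk, a flexible arm of the large subunit that recruits translation factors, fell in all 3 of its genes. RPLP0 had 2151, 2361 and 2146 CPM in DMSO and 1545, 1058 and 990.2 CPM with enzalutamide. RPLP1 had 625, 629.9 and 566 CPM in DMSO and 496, 326 and 252 CPM with enzalutamide. RPLP2 had 283, 276 and 253 CPM in DMSO and 172, 117 and 116 CPM with enzalutamide. The groups did not overlap in any of them, and the log2 changes were −0.89 ± 0.15, −0.76 ± 0.20 and −1.004 ± 0.15 (SE).

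The 3 MDM2-binding proteins also fell. RPL5, which joins the 5S ribosomal RNA with RPL11, had 681, 653 and 647 CPM in DMSO and 334, 347 and 322 CPM with enzalutamide. RPL11 had 374, 377 and 364 CPM in DMSO and 269, 222 and 197 CPM with enzalutamide. RPL23 had 876, 872 and 862 CPM in DMSO and 672, 596 and 531 CPM with enzalutamide. RPL5 fell 1.97-fold within a narrow spread (log2 change −0.98 ± 0.08, SE), and RPL11 (−0.70 ± 0.12) and RPL23 (−0.54 ± 0.10) fell by less, without a test of the difference between them. Of 6 genes of the p53 arm around them, 5 fell and 1 rose, beside 29.2% lower and 30.0% higher of all genes. The call of MDM4, which fell, was lost with upper quartile scaling (−0.30). NPM1, a nucleolar chaperone of ribosome assembly, had a log2 change of −1.56 and MDM2 of −1.26, while CDKN1A, a cell cycle inhibitor induced by p53, rose by 0.56.

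Genes mutated in Diamond-Blackfan anaemia, an inherited failure of red cell production, were measured in 18 of 19 cases. Of these 16 fell, RPL15 and RPS26 missed the threshold, and the median was −0.77. These values are near those of the whole family, where 74 of 84 fell with a median of −0.81. Of all genes 29.2% were called lower. After RPS19 the lowest changes were in RPS29 (−1.11), RPS28 (−1.02), RPL26 (−0.99), RPL5 (−0.98), RPL35 (−0.96) and RPL35A (−0.92). RPS7 (−0.83), RPL27 (−0.78), RPS15A (−0.76), RPS24 (−0.71), RPL11 (−0.70), RPL31 (−0.68), RPS10 (−0.63) and RPL18 (−0.57) followed, and RPS27 was nearest to 0 among those that fell. RPL18 did not pass without enzalutamide replicate 2 (−0.49), and 21.4% of the exonic bases of RPS28 overlap genes on the other strand. The change of RPS10 turned positive with pseudogene counts added, and the call of RPS27 was lost in 6 alternative fits.

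Levels between genes were compared per length, in RPKM. The merged exon lengths run from 639 to 9845 bases with a median of 2840, while the median transcript of the same genes has 1010.5 bases, so RPKM can understate these genes, and unevenly. In DMSO the highest were RPL13A (923 RPKM), RPS2 (901), RPS12 (580), RPLP0 (557) and RPS27 (495). With enzalutamide RPL41 was highest (459 RPKM), followed by RPL13A (396), RPS27 (383), RPS12 (327) and RPS3A (311). RPS2 moved from the second to the eighth place, at 289 RPKM.

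The lowest levels per length in DMSO were those of RPL3L (0.164 RPKM), RPS9 (0.418), RPL7A (0.482), RPS18 (1.22) and RPS25 (1.36), followed by RPS10. RPL3L apart, these are core ribosomal proteins, and for 4 of them reads of a near-identical sequence were listed under other rows. Named pseudogenes, processed copies of the mRNA elsewhere in the genome, held 96.5% of the counts of gene and pseudogenes together for RPL7A, 84.6% for RPS10 and 78.3% for RPS18, as sums over the 6 libraries. RPS10 also shares 39.4% of its exonic bases with the readthrough gene RPS10-NUDT3. RPS9 had 56, 101 and 52 counts on chromosome 19 in DMSO and 124, 168 and 107 on an alternate scaffold. RPS25 has 20.8% of its exonic bases overlapped by genes on the other strand. Measured values were 1.18, 1.07 and 0.990 CPM in DMSO and 0.646, 0.454 and 0.428 CPM with enzalutamide for RPL7A, and 4.51, 4.94 and 4.75 CPM in DMSO and 2.47, 3.38 and 3.37 CPM with enzalutamide for RPS10. With pseudogene counts added, the change of RPS10 turned from −0.63 to 0.15. The levels and changes of these 5 core genes are therefore uncertain.

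The promoter windows below show the start of genes at both ends of the range, from RefSeq (GRCh38.p14). Each runs from 40 bases before to 19 bases after the annotated first base of the transcript, 5′ to 3′ on the gene's strand. Capitals mark at least 5 C or T letters in a row, read from the C within 5 bases of that start that gives the longest stretch, the form of a TOP tract. In RPS19 and RPL13A further C or T letters lie directly before the capitals.
RPS16: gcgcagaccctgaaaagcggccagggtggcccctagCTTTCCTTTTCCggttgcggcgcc
RPS19: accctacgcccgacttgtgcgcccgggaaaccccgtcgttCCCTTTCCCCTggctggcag
RPL13A: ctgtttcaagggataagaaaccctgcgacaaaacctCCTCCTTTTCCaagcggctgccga
RPL22L1: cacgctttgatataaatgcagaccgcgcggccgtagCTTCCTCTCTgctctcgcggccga
RPL22: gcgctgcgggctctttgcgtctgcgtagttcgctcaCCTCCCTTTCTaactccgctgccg
RPL41: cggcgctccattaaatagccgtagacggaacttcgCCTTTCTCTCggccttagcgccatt
RPL15: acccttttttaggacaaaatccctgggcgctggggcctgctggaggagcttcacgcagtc
RPL10L: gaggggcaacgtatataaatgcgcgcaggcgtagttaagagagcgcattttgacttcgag
The windows lie at chr19:39435930-39435989 (RPS16, minus strand), chr19:41860215-41860274 (RPS19, plus strand), chr19:49487568-49487627 (RPL13A, plus strand), chr3:170870176-170870235 (RPL22L1, minus strand), chr1:6199576-6199635 (RPL22, minus strand), chr12:56116593-56116652 (RPL41, plus strand), chr3:23916505-23916564 (RPL15, plus strand) and chr14:46651762-46651821 (RPL10L, minus strand). The first 4 genes are among the largest falls, and the next 4 were not called lower with all libraries. RPL22L1 and RPL22, whose ratio fell by 1.35 on the log2 scale, both hold a run, as does RPL41, and none is found at the annotated starts of RPL15 and RPL10L.

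Of the 84 genes, 68 had a promoter entry, of which 10 had more than 1 annotated start. RPS2 had none. A gene was counted if any of its starts held the run: 56 of 68 did (82.4%), against 25.2% of 27326 genes with an entry. Genes with the run had a median log2 change of −0.83 (quartiles −1.01 and −0.71). The 12 without it, RPS29, RPL17, RPL27, RPS4X, RPL26L1, RPL9, RPS27L, RPS15, RPS26, RPL7L1, RPL15 and RPL10L, had a median of −0.46 (quartiles −0.65 and −0.32). These 12 hold 4 of the paralog copies, and a start annotated some bases away would hide a run, so the values are a description without a test.

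Other letters were searched in the full 300 bases on both strands. CGGAAG, the core of sites of GABP and other ETS factors, was in 64.7% of the 68 and 22.6% of all genes, and ATGGCGG, a form known for YY1, in 20.6% and 6.67%. GGGCGG, the GC box of SP1, was in 58.8% and 48.3%, CACGTG, the E-box of MYC and MAX, in 7.35% and 8.78%, and TATAAA, the TATA box, in 10.3% and 14.0%. CTTTCC on the gene's strand within 10 bases before and 30 after the start was in 32.4% and 2.28%. CTTTCC can lie inside the C and T run, most of the reverse of CGGAAG can too, and GGGCGG and ATGGCGG can share letters. The median log2 change was −0.77 in the 44 genes with CGGAAG and −0.86 in the 24 without it. It was −1.02 in the 5 genes with CACGTG and −0.81 in the 63 without.

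Within the 78 genes of at least 10 CPM, Spearman's rho of the log2 change was −0.04 with the DMSO level in log2 CPM, 0.03 with transcript length and −0.20 with transcript GC content. Pearson's r was −0.23 with the DMSO level and −0.18 with GC content. These are descriptions over genes that share libraries.

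Other genes of the ribosome and its control were taken from lists, each read beside the 29.2% lower and 30.0% higher of all genes. FAU and RACK1, ribosomal proteins with names outside the rule, and RPS27A all fell. FAU encodes a fusion with a ubiquitin-like protein, and RACK1 is a scaffold on the small subunit. RACK1 had 882, 967 and 887 CPM in DMSO and 547, 394 and 374 CPM with enzalutamide, a log2 change of −1.06 that lies within the range of the family. Of 20 measured TOP mRNAs that encode no protein of the name rule, 18 fell, VIM rose and EEF1D did not pass. EIF3F, among the 18, did not pass with upper quartile scaling (−0.28) or with the GC trend removed (−0.18). VIM, an intermediate filament protein near 2 to 4 CPM, did not pass without enzalutamide replicate 1 or any of the DMSO replicates (adjusted p from 0.0556 to 0.116, n = 2 against 3, edgeR quasi-likelihood test). The largest falls were in the small nucleolar RNA hosts SNHG1 (log2 change −1.89) and GAS5 (−1.77), the splicing factor HNRNPA1 (−1.65) and the initiation factor EIF4B (−1.30). The list's median was −0.76, beside −0.81 for the ribosomal protein genes. The list also holds FAU and RACK1, and shares NAP1L1, NACA and BTF3 with the next list.

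Of 13 measured chaperones and import factors of ribosomal proteins, 10 fell. LTV1, an assembly factor of the small subunit, had a log2 change of −1.17, GRWD1, whose yeast counterpart escorts the RPL3 protein, −1.01, and the importin IPO7 −0.97. The exception was TSR2, known from yeast as the escort of the RPS26 protein, which rose from 67.8, 73.1 and 64.3 CPM in DMSO to 128, 105 and 105 CPM with enzalutamide (log2 change 0.72 ± 0.11, SE, adjusted p = 0.00031). Its client RPS26 was among the genes that did not pass, but passed as lower without enzalutamide replicate 1 (−0.51). A link between TSR2 and RPS26 was not tested. HEATR3 and AAMP did not pass. Of 12 genes of ribosome rescue and subunit joining, 6 fell, SBDS and LTN1 rose and 4 did not pass. ABCE1, which splits ribosomes after termination, had a log2 change of −1.49, ZNF598, a sensor of collided ribosomes, −1.39, and LTN1, the ubiquitin ligase of stalled chains, 1.46. HBS1L, which fell, did not pass without DMSO replicate 1 or 3 or with upper quartile scaling. EIF6 passed as lower without enzalutamide replicate 1 (−0.65), with DESeq2, limma-voom, the replicate block and the GC trend removed (−0.41 to −0.49).

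The mTORC1 arm was mixed. Of 14 genes 7 fell, 2 rose and 5 did not pass. EIF4EBP1, a translation repressor that mTORC1 inactivates, had a log2 change of −1.94 and MTOR, the kinase itself, of −1.14. DEPTOR, an inhibitor bound to mTOR, rose by 1.61 and TSC1, an upstream inhibitor, by 0.44. MLST8, which fell, did not pass with upper quartile scaling or in 5 of the 6 fits without a library, all but that without enzalutamide replicate 1. LARP1, the TOP-binding protein, did not pass, at 533, 574 and 552 CPM in DMSO and 595, 506 and 529 CPM with enzalutamide. Of 12 measured transcription factors known at ribosomal protein promoters, 5 fell, ZBTB7A and MAX rose and 5 did not pass. MYC had 115, 130 and 126 CPM in DMSO and 16.4, 12.6 and 13.3 CPM with enzalutamide. Its log2 change of −3.14 and that of E2F1 (−3.13) were far larger than any of the 78 well-measured ribosomal protein genes. GABPA (−0.70) and GABPB1 (−0.51), the subunits of GABP, had smaller changes, TBP, which fell, did not pass without any 1 of the DMSO replicates, with upper quartile scaling or with the replicate block, and SP1 and YY1 did not pass. Protein levels and activity were not measured.

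**Figure D5:**
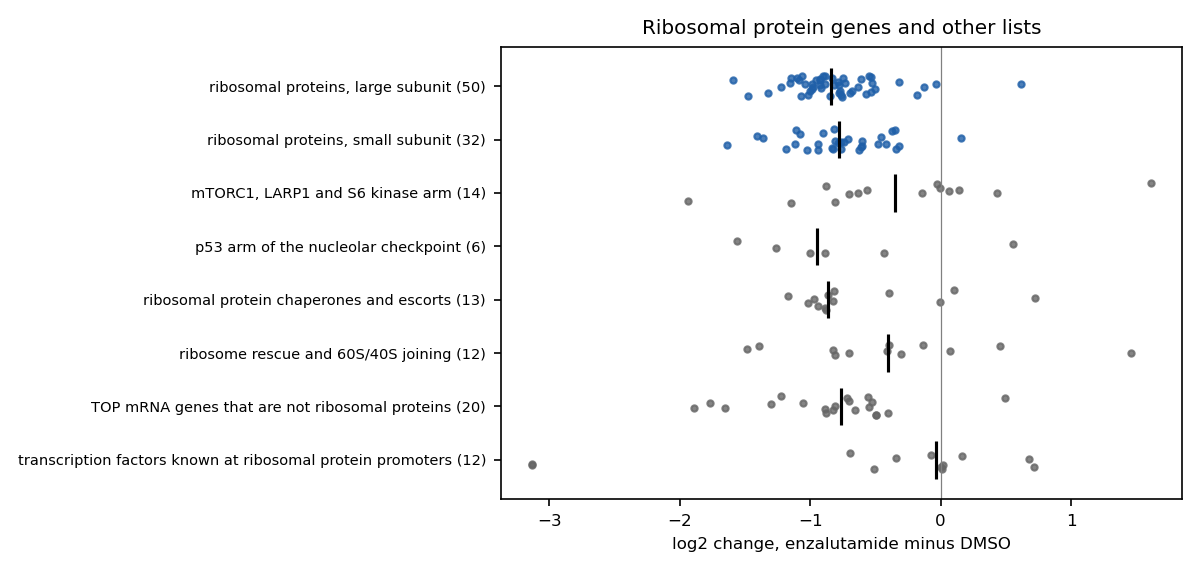
Log2 change with enzalutamide (horizontal axis) of the ribosomal protein genes by subunit, without RPL3L and RPS19BP1, and of 6 other lists, with the number of genes in brackets and vertical lines at the medians. The medians of both subunits and of the other TOP mRNAs lie near −0.8, though the TOP list runs from −1.89 (SNHG1) to 0.50 (VIM). MYC and E2F1 lie near −3.1, and the mTORC1 list spans −1.94 to 1.61.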

How the data were processed

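The authors deposited whole-number read counts per gene for 18164 genes in 6 libraries of poly(A) mRNA, with log2 CPM and log2 RPKM values and their own log2 fold changes, p-values and false discovery rates, per the file headers. The submitters' processing notes name hg38, edgeR 3.20.8, STAR 2.5, Subread 1.6.5, featureCounts and bcl2fastq. For strand and multi-mapped reads the setting is not given in the sources, so paralogs, pseudogenes and overlapping genes are uncertain.

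The members, lists and tests were chosen with earlier results of these data known. Named genes followed a rule on size of change, paralogs, known roles and levels. Some genes that enter the counts and medians are not reported here by name.

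Counts were tested with edgeR 4.0.16 (R 4.3.3) by its quasi-likelihood F test (robust, group as the single term), with TMM scaling, 4 residual degrees of freedom and Benjamini-Hochberg adjustment over all 18164 genes. The filter removed none. Each SE is the absolute log2 change divided by the root of F. The biological coefficient of variation was 12.3%. CPM use TMM-scaled library sizes. RPKM divide these by the deposited merged exon length. Overlaps, GC content and transcript lengths came from the GENCODE annotation of the same genome, promoters from RefSeq. Paralog ratios add 0.5 counts to each copy. Genes against the members' total used the summed counts of the 84 genes as library size. Replicates differed by more than counting noise (lowest chi-square per degree of freedom 3.79). In simulated counts for this comparison (17867 genes), 70 of 74 lowered members were called and 0 of 10 unaltered ones. The simulation gave every gene the same variation, drew genes independently and lowered those members by an equal amount. It changed far fewer other genes than were called here and held no GC difference or shift shared within a library. It therefore cannot show that the calls in these libraries are sound. Of the 84 genes, 74 in the authors' deposited table were lower at a false discovery rate under 0.05, and log2 changes differed from these by at most 0.003. Alternatives were DESeq2 1.42.0, limma-voom (limma 3.58.1), other scalings and filters, a replicate block, pseudogene or alternate scaffold counts added, leaving out each library, and, added after the data were seen, removal of a GC trend.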

Additional observations from a re-analysis of the deposited data

How the results depend on the processing

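Over 18 alternative fits the count of ribosomal protein genes that fell ranged from 71 (without enzalutamide replicate 2) to 81 (without enzalutamide replicate 1), beside 74, and the median log2 change from −0.97 (without enzalutamide replicate 1) to −0.69 (upper quartile scaling, which moved the median of all genes to 0.12). The genes that rose numbered 2 with upper quartile scaling, 2 with the GC trend removed (chosen after the data were seen) and 1 to 2 when a library was left out. Genes called against the family's own total numbered 15 to 45 when a library was left out. Signs turned for RPS10 with pseudogene counts added (0.15), for RPL22 with upper quartile scaling (0.000484) and with the GC trend removed (0.0149), for RPL41 with upper quartile scaling (0.092) and without enzalutamide replicate 3 (range without a library −0.193 to 0.0967), and for the RPS27L to RPS27 log2 ratio without enzalutamide replicate 1 (range −0.131 to 0.140). The cause was not tested. With pseudogene counts added the RPL36AL to RPL36A difference was 0.01, beside 0.49. Of 1510 values of single genes under these fits, 1477 kept direction and call. All genes called numbered 10754, and 9151 to 12924 without a library.

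Same-numbered libraries did not deviate together (correlations −0.33, −0.48 and 0.19), so replicate numbers were not read as pairs. With the replicate block 75 genes fell, 1 rose and 17, in place of 24, departed from the family's total, and RPS20 passed as lower (−0.39). The fit without a filter equals the main one because the filter removed no gene, and the stricter filter of 1 CPM left 82 of the 84. Genes near 1 to 5 CPM, and RPL3L, are limited by their counts, and several of the former also by reads listed under other rows.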
